A study of Mus musculus with 4 samples.

Results

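A set of 10 enzyme genes was followed in mouse induced regulatory T (iTreg) cells, CD4 T cells that take on the transcription factor Foxp3 in culture: Phgdh, Psat1, Psph, Shmt1, Shmt2, Mthfd1, Mthfd1l, Mthfd2, Pycr1 and Aldh18a1. They were chosen by name, through the Ensembl IDs of their symbols, and make up 10 of the 47729 gene rows of the count table. All 10 were among the 13732 genes with enough reads for a test. Naive CD4 T cells from the spleen of C57BL/6 mice were stimulated with antibodies to CD3 and CD28 in a medium with 100 U/mL of IL-2 and 5 ng/mL of TGF-β, together with blocking antibodies to IFN-γ and IL-4, each at 5 µg/mL. For 4 days the cells received either ferrous sulfate (FeSO4, 50 µM) or PBS (Mock), and all other conditions were shared. There were 2 libraries in each group. Per the study's methods they formed 2 pairs, taken from 2 independent experiments, but the labels did not say which library belonged to which. The main test therefore left the pairing out, and its p-values measure the spread between these libraries.

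Serine is made from the glycolytic intermediate 3-phosphoglycerate in 3 steps, by Phgdh, Psat1 and Psph in that order. Serine hydroxymethyltransferases then turn serine into glycine and pass its carbon to folate, in mitochondria by Shmt2 and in the cytosol by Shmt1. In mitochondria Mthfd2 and Mthfd1l oxidize the folate-bound carbon and release it as formate, which the cytosolic enzyme Mthfd1 puts back onto folate for the synthesis of purines and thymidylate. Proliferating T cells are known to depend on this route. Aldh18a1 and Pycr1 belong to another pathway, since they make proline from glutamate, so that the 10 genes comprised 3 of serine synthesis, 3 of mitochondrial folate metabolism, 2 of cytosolic folate metabolism and 2 of proline synthesis.

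Of the 10 genes, Psat1, Mthfd1l, Mthfd2 and Pycr1 rose in FeSO4, Aldh18a1 fell, and the other 5 did not pass an adjusted p of 0.05 (edgeR's quasi-likelihood test with Benjamini-Hochberg adjustment over all genes tested). Among all genes tested the same threshold called 20.0%, with 10.9% higher and 9.17% lower. The median log2 fold change of the 10 genes was 0.18, against -0.00052 for all genes tested. That median was 0.063 with FeSO4 replicate 1 left out and 0.31 with FeSO4 replicate 2 left out. Above 0 were 9 of the 10 log2 fold changes, beside 6852 of the 13732 genes tested. Shmt2 and Mthfd1 fell below 0 with FeSO4 replicate 1 left out (-0.00073 and -0.027). In 5 genes both FeSO4 libraries lay above both Mock libraries and in 1 gene both lay below. Such separation in one direction or the other was found in 59.5% of all genes tested, so a count of 6 of 10 was near the background. The study's own threshold, a log2 fold change of 0.5 or more in either direction and p below 0.05 before adjustment, was passed by Pycr1 alone among the 10, and by 10.4% of all genes.

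**Figure D1:**
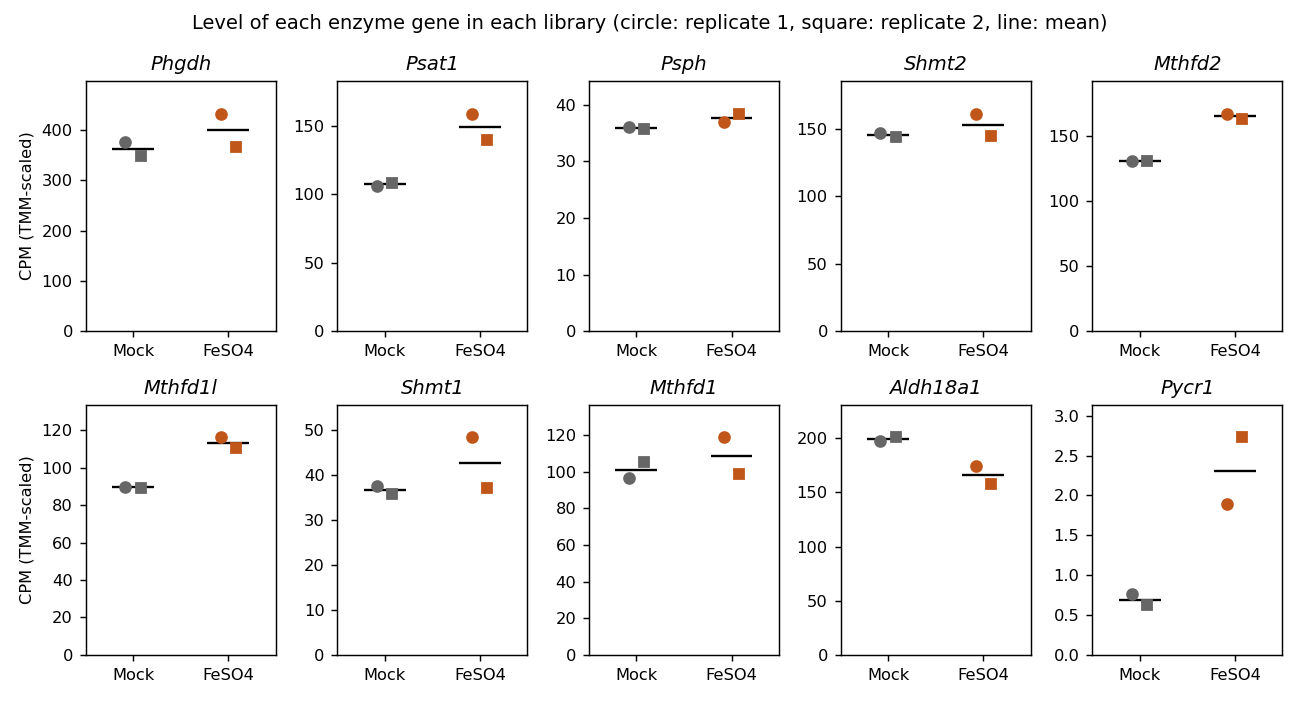
Level of each enzyme gene in CPM (y axis from 0, on TMM-scaled library sizes) in the 2 Mock and 2 FeSO4 libraries, with circles for replicate 1, squares for replicate 2 and lines for the group means. The FeSO4 points lie above the Mock points for Psat1, Psph, Mthfd2, Mthfd1l and Pycr1, and below them for Aldh18a1.

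The gene rows held 35183187 to 40859178 reads in a library, so that a gene without any read could still have a level of up to 0.0734 to 0.0853 CPM, the equivalent of 3 reads. Levels are given in CPM, reads scaled to a fixed total using TMM-scaled library sizes. The defining genes of T cells and iTreg cells were abundant in every library (Cd3e, Cd3g, Cd4, Foxp3, Il2ra and Ctla4, summing to 3404 to 3772 CPM on unscaled library sizes). They did not move together. Foxp3 fell from 587 and 693 CPM to 376 and 472 CPM with FeSO4 (log2 fold change -0.59 ± 0.09, adjusted p = 0.000223, edgeR), Cd3g rose from 368 and 349 CPM to 505 and 512 CPM (0.50 ± 0.06, adjusted p = 2.04e-05, edgeR), and the other 4 were not called. The summed level of 5 myeloid markers was 6.37 CPM in Mock replicate 1 and 1.79 to 2.55 CPM in the other libraries, with 164 reads of Lyz2 in Mock replicate 1 and 0 to 8 elsewhere. The sum of 6 erythroid markers, most of it Hba-a1, came to 21.4 to 26.7 CPM in the Mock libraries against 33.8 to 38.8 CPM with FeSO4. The part of these cells, and of the lower Foxp3 level, in the results was not tested. In bulk RNA, fewer cells of a type and less RNA per cell cannot be told apart.

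Within serine synthesis the middle step changed and the first and last did not pass the test. Psat1, the aminotransferase that makes phosphoserine (chromosome 19, 15905123 to 15925059 in GRCm38.p6), stood at 106 CPM in Mock replicate 1, 108 in Mock replicate 2, 159 in FeSO4 replicate 1 and 140 in FeSO4 replicate 2. Both FeSO4 libraries were above both Mock libraries, by more than either pair differed within itself. Its log2 fold change was 0.48 ± 0.07 (SE, n = 2 per group), or 1.39-fold, with an adjusted p of 0.000226 in edgeR. Under each of the 12 alternative settings of scaling, filter, test and samples Psat1 stayed past the threshold, with log2 fold changes from 0.39 to 0.57. A stretch of 276 bases of its transcript, 10.55% of the whole, has a copy elsewhere in the genome.

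Phgdh, the dehydrogenase that opens the pathway (chromosome 3, 98313171 to 98339969), was at 376 and 348 CPM in the Mock libraries and at 432 and 366 CPM in the FeSO4 libraries. FeSO4 replicate 1 was the highest of the 4, while FeSO4 replicate 2 lay between the Mock libraries, so the groups overlapped. Its log2 fold change of 0.14 ± 0.07 had a 95% interval of -0.02 to 0.30 and an adjusted p of 0.207 in edgeR. Without FeSO4 replicate 1 the value was 0.02, and without FeSO4 replicate 2 it was 0.26 with an adjusted p of 0.0341. Parts of the Phgdh transcript aligned elsewhere in the mouse genome at 90% identity or more, in 20 alignments, of which 1 place may hold several. Together these cover 97.36% of the transcript, so the Phgdh count is uncertain where reads with more than 1 alignment were dropped.

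Psph, the phosphatase that releases free serine (chromosome 5, 129765558 to 129787443), was at 36.1 and 35.7 CPM in Mock and at 36.9 and 38.4 CPM in FeSO4. Both FeSO4 libraries were above both Mock libraries, by a margin of the same order as the gap between the FeSO4 libraries. This gave a log2 fold change of 0.07 ± 0.09, with a 95% interval of -0.11 to 0.26 and an adjusted p of 0.623 in edgeR.

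Summed over the 3 genes of serine synthesis, the level was 505 ± 18.7 CPM (SD, n = 2) in the Mock libraries and 586 ± 58.8 CPM (n = 2) in the FeSO4 libraries. Phgdh made up most of that sum. The log2 ratio of Psat1 to Phgdh reads was -1.83 and -1.69 in the Mock libraries and -1.44 and -1.39 in the FeSO4 libraries. Every FeSO4 ratio was thus above every Mock ratio, with a mean difference of 0.34 on the log2 scale. A two-sided exact permutation test over the 4 libraries gave p = 0.33, the smallest value that 2 against 2 can give, so no ratio could reach 0.05 here.

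Of the mitochondrial folate enzymes, the downstream pair rose and the serine hydroxymethyltransferase did not pass the test. Mthfd2, the dehydrogenase and cyclohydrolase of mitochondria (chromosome 6, 83305704 to 83326011), was at 130 and 131 CPM in Mock and at 167 and 163 CPM in FeSO4. The libraries of each group lay close together and the groups were well apart. Its log2 fold change was 0.34 ± 0.06, a 1.26-fold rise, with an adjusted p of 0.00156 in edgeR, and it was called under all 12 alternatives (0.27 to 0.36).

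Mthfd1l, the mitochondrial synthetase that sets formate free (chromosome 10, 3972892 to 4167081), was at 89.7 and 89.3 CPM in Mock and at 116 and 110 CPM in FeSO4. The groups did not overlap. The log2 fold change was 0.34 ± 0.07, a 1.27-fold rise, with an adjusted p of 0.00246 in edgeR, and the gene was called under all 12 alternatives (0.27 to 0.38). The sizes of the Mthfd2 and Mthfd1l changes differed by less than either SE.

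Shmt2, the mitochondrial hydroxymethyltransferase (chromosome 10, 127517123 to 127522444), was at 147 and 144 CPM in Mock and at 161 and 145 CPM in FeSO4. FeSO4 replicate 2 lay between the Mock libraries. Its fold change on the log2 scale, 0.07 ± 0.07, had a 95% interval of -0.07 to 0.22 (adjusted p = 0.504, edgeR), and leaving out FeSO4 replicate 1 brought it to -0.00073. Its exons overlap those of Ndufa4l2 on the other strand, a gene with at most 1 read in any library. The 3 mitochondrial folate genes together summed to 366 ± 2.25 CPM (SD, n = 2) in the Mock libraries and 431 ± 18.4 CPM (n = 2) in the FeSO4 libraries, with both FeSO4 sums, 444 and 418 CPM, above both Mock sums, 367 and 364 CPM.

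Neither cytosolic folate enzyme passed the test. Shmt1, the cytosolic hydroxymethyltransferase (chromosome 11, 60788897 to 60811265), was at 37.6 and 35.8 CPM in Mock and at 48.3 and 37.1 CPM in FeSO4. One FeSO4 library was the highest and the other lay between the Mock libraries. The log2 fold change was 0.22 ± 0.11 (95% interval -0.01 to 0.44, adjusted p = 0.183, edgeR). It came to 0.02 with FeSO4 replicate 1 left out, and to 0.40 with FeSO4 replicate 2 left out (adjusted p = 0.0154). The exons of Shmt1 overlap those of Smcr8 on the other strand, and how the counting treated strand is not given in the sources used here. Smcr8 went from 73.3 and 78.5 CPM in the Mock libraries to 66.8 and 68.8 CPM, with a log2 fold change of -0.16 ± 0.08 and an adjusted p of 0.145 in edgeR.

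Mthfd1, the cytosolic enzyme that joins formate to folate (chromosome 12, 76254406 to 76319820), was at 96.4 and 106 CPM in Mock and at 119 and 98.9 CPM in FeSO4. Again FeSO4 replicate 1 was the highest and FeSO4 replicate 2 lay between the Mock libraries. The log2 fold change was 0.11 ± 0.08 (95% interval -0.07 to 0.29, adjusted p = 0.414, edgeR) and turned to -0.03 without FeSO4 replicate 1. The sum of the 2 cytosolic genes was 138 ± 5.21 CPM (SD, n = 2) in the Mock libraries and 152 ± 22.1 CPM (n = 2) in the FeSO4 libraries.

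**Figure D2:**
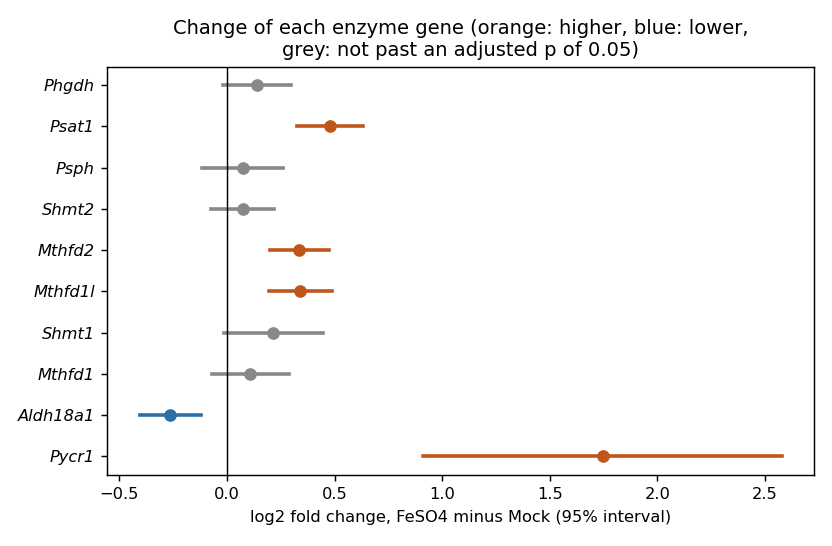
Log2 fold change of each enzyme gene, FeSO4 minus Mock, with its 95% interval (x axis) and 1 gene per line. Psat1, Mthfd2, Mthfd1l and Pycr1 (orange) lie above 0, Aldh18a1 (blue) lies below 0, and the intervals of the other 5 genes (grey) include 0.

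Ratios between enzymes of the 2 compartments were also taken within each library. The log2 ratio of Mthfd1l to its cytosolic counterpart Mthfd1 was -0.10 and -0.24 in Mock and -0.03 and 0.16 in FeSO4, so both FeSO4 ratios were above both Mock ratios, by 0.24 on average (two-sided exact permutation p = 0.33), or by 0.14 without FeSO4 replicate 2. The log2 ratio of Shmt2 to Shmt1 went the other way, at 1.97 and 2.01 in Mock and 1.74 and 1.97 in FeSO4. Its mean difference was -0.13 (p = 0.33 in the same exact test), -0.02 without FeSO4 replicate 1 and -0.25 without FeSO4 replicate 2. FeSO4 replicate 2 lay barely below Mock replicate 1 (1.967 against 1.968). For Mthfd2 against Mthfd2l, a second mitochondrial dehydrogenase of the same family, the log2 ratios overlapped, at 5.29 and 5.53 in Mock and 5.82 and 5.50 in FeSO4 (mean difference 0.25, exact permutation p = 0.667, and 0.09 to 0.41 with a library left out). Mthfd2l itself was at 2.82 to 3.59 CPM in the 4 libraries.

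**Figure D3:**
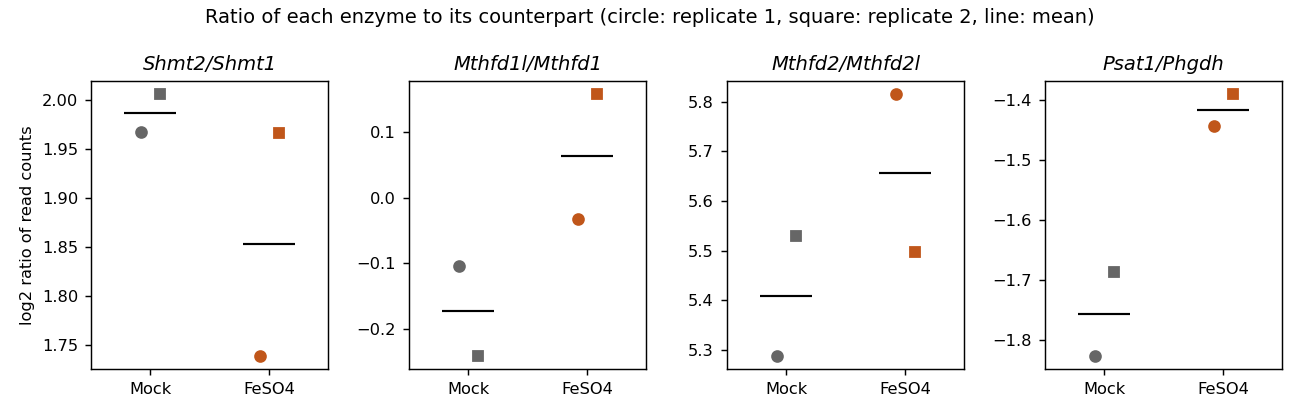
Log2 ratio of the read counts of an enzyme to those of its counterpart (y axis, its own range in each panel, not starting at 0) in each Mock and FeSO4 library, with circles for replicate 1, squares for replicate 2 and lines for the means. Mthfd1l/Mthfd1 and Psat1/Phgdh are higher in both FeSO4 libraries, Shmt2/Shmt1 is lower, and Mthfd2/Mthfd2l overlaps.

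The proline enzymes moved in opposite directions. Aldh18a1, the synthase that turns glutamate into pyrroline-5-carboxylate (chromosome 19, 40550257 to 40588463), was at 198 and 201 CPM in Mock and at 175 and 157 CPM in FeSO4. Both FeSO4 libraries were below both Mock libraries. A log2 fold change of -0.26 ± 0.07, or 0.833-fold, had an adjusted p of 0.0109 in edgeR. The call was lost without FeSO4 replicate 2 (-0.19, adjusted p = 0.177) and when every gene with at least 1 read was tested (adjusted p = 0.0938).

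Pycr1, a mitochondrial reductase that finishes proline (chromosome 11, 120638998 to 120643748), had the largest fold change of the 10 and the lowest level. It had 31 and 26 reads in the Mock libraries and 65 and 101 in the FeSO4 libraries, or 0.764, 0.622, 1.90 and 2.73 CPM. Both FeSO4 libraries were above both Mock libraries, and the 95% Wilson intervals of the lowest FeSO4 library (1.49 to 2.42 CPM) and the highest Mock library (0.538 to 1.08 CPM), which cover counting error only, did not meet. The log2 fold change was 1.75 ± 0.40, or 3.35-fold, with a 95% interval of 0.91 to 2.58 and an adjusted p of 0.00499 in edgeR. The call was lost without FeSO4 replicate 2 (1.45, adjusted p = 0.0755) and when every gene with at least 1 read was tested (adjusted p = 0.0589). Because Aldh18a1 was far more abundant, the summed level of both genes was lower in FeSO4, at 176 and 160.2 CPM, than in Mock, at 199 and 201 CPM. Pycrl, a related reductase gene outside the 10, was far more abundant than Pycr1 and was not called. It was at 32.7 and 28.5 CPM in Mock and at 32.5 and 27.4 CPM in FeSO4 (-0.04 ± 0.11, adjusted p = 0.861, edgeR). The rise of Pycr1 thus does not describe all reductases of this kind.

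The sequences upstream of these 2 genes are shown because they changed in opposite directions and because each was the only one of the 10 to hold one of the motifs searched. The windows are from RefSeq (GRCm38.p6), where all 10 genes had one, and run from 250 bases before to 50 bases after the start of transcription. The motifs were TGATGNAA, the first letters of the composite element bound by dimers of C/EBP proteins and ATF4, and CACGTG, the E-box bound by Myc and other factors. Both strands were searched, and CACGTG reads the same on both. The first was found in 3.97% and the second in 7.15% of 32851 windows of all genes. By gene the shares were 4.51% and 8.09% of 27025. Of the 10 genes, 1 held the first and 1 the second. The 250 bases before each start are printed 5′ to 3′ on the strand of the gene, with the matching letters in capitals. Pycr1 lies at chr11:120643749-120643998 (minus strand), with its match beginning 103 bases before the start, and Aldh18a1 at chr19:40588464-40588713 (minus strand), with its match beginning 59 bases before the start.
Pycr1: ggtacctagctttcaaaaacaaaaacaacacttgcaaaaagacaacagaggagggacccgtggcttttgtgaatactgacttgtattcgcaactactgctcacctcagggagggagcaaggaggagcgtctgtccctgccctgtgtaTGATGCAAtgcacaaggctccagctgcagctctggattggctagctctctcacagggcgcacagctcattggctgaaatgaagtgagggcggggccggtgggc
Aldh18a1: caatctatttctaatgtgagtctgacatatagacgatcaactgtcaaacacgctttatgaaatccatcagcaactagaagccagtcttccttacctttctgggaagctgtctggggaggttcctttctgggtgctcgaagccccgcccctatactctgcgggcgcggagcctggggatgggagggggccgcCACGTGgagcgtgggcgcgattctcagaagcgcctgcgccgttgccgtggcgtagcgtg

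Set per length, the enzyme genes spanned a wide range. In Mock, Phgdh was highest at 146 ± 7.98 CPM per kilobase of exon, followed by Shmt2 (63.8 ± 0.988), Aldh18a1 (50.1 ± 0.548), Mthfd2 (48.0 ± 0.0968), Mthfd1 (30.4 ± 1.95), Psat1 (25.2 ± 0.338), Mthfd1l (20.2 ± 0.0595), Psph (19.7 ± 0.157), Shmt1 (9.46 ± 0.326) and Pycr1 (0.176 ± 0.0256), each as mean ± SD of CPM per kilobase over 2 libraries. The ranges of neighbours in this order did not overlap in Mock. In FeSO4 Mthfd2, at 60.6 ± 1.01 CPM per kilobase, stood above Aldh18a1 at 41.76 ± 3.04, and Psat1, at 35.1 ± 3.16, had a higher mean than Mthfd1 at 32.7 ± 4.26, although the libraries of those last genes overlapped. The middle of the order depended on the length used. With the longest coding transcript in place of all annotated exons, a choice made after the values were seen, Mthfd2 was above Aldh18a1 in Mock as well (62.7 against 56.5 CPM per kilobase) and Psat1 above Mthfd1 (40.9 against 30.4), while Phgdh stayed the highest and Shmt1 and Pycr1 the lowest under either length.

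**Figure D4:**
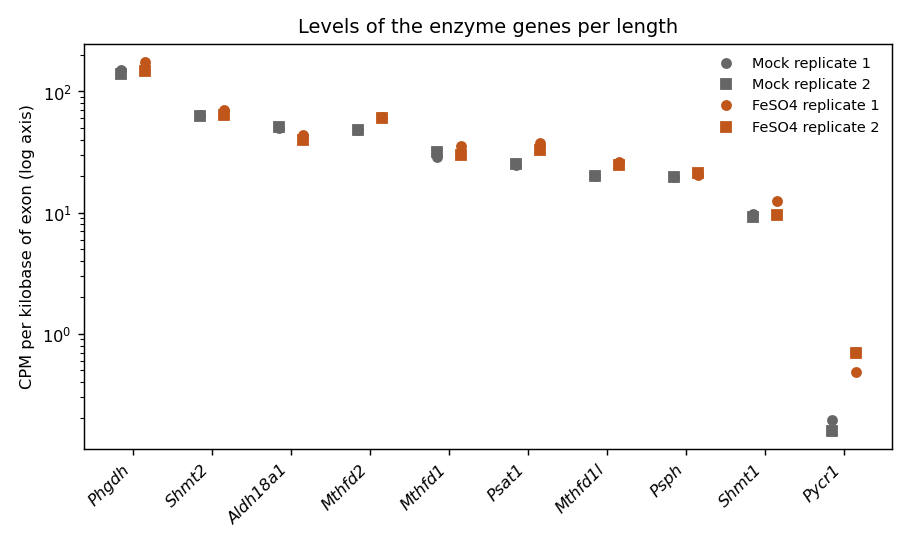
Levels of the 10 enzyme genes in CPM per kilobase of exon (log y axis) in each Mock (grey) and FeSO4 (orange) library, ordered by the Mock mean. Phgdh is the highest, at 140 to 174 CPM per kilobase, and Pycr1 the lowest, at 0.158 to 0.693.

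The FeSO4 libraries differed from each other more than the Mock libraries did over these genes. Of the 10 genes, 8 were higher in FeSO4 replicate 1 than in FeSO4 replicate 2, with Psph and Pycr1 the exceptions, and the median log2 ratio of the replicates was 0.15. In Mock 6 of 10 were higher in replicate 1, with a median log2 ratio of 0.01. Over all genes tested, 50.6% were higher in replicate 1 in either group. The summed level of the 10 genes was 1218 and 1199 CPM in the Mock libraries against 1416 and 1259 CPM with FeSO4.

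Around the 10 enzymes, 62 further genes of folate, glycine, purine, proline and amino acid metabolism and of the factors acting on them were examined, of which 55 could be tested. In FeSO4, 12 were higher and 2 lower, so that 25.5% were called, beside 20.0% of all genes tested (10.9% higher, 9.17% lower). In the folate cycle and transport, 15 of 17 genes were tested, with 4 higher and 1 lower and a median log2 fold change of 0.16. Tyms, which makes thymidylate with folate-bound carbon, rose from 123 and 121 CPM to 155 and 145 CPM (0.29 ± 0.07, adjusted p = 0.00534, edgeR). Its exons overlap those of a gene on the other strand. Ggh, which trims the glutamate tail of folates, rose as well (0.64 ± 0.13, adjusted p = 0.00275, edgeR), as did Sfxn1, the mitochondrial serine carrier (0.24 ± 0.07, adjusted p = 0.0241, edgeR). Slc46a1, the proton-coupled folate transporter, fell from 6.06 and 5.02 CPM to 3.59 and 2.51 CPM (-0.87 ± 0.24, adjusted p = 0.0190, edgeR). The call of Tyms was lost without FeSO4 replicate 1 (0.25, adjusted p = 0.0747), that of Slc46a1 without Mock replicate 1 (-0.73, adjusted p = 0.104) or FeSO4 replicate 2 (-0.62, adjusted p = 0.185), and that of Sfxn1 without any one of the 4 libraries (0.23 to 0.27) and under scaling by library size alone (adjusted p = 0.0877). When every gene with a read was tested, the calls of Tyms (adjusted p = 0.0543), Sfxn1 (0.0861) and Slc46a1 (0.108) were lost as well.

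Aldh1l2 and Aldh1l1, which burn folate-bound carbon to CO2, gave no call. Aldh1l2, the mitochondrial formyltetrahydrofolate dehydrogenase, was near the detection limit, with 0.0246 and 0.143 CPM in the Mock libraries, 0.321 and 0.270 CPM in the FeSO4 libraries and an adjusted p of 0.198 in edgeR. Its cytosolic relative Aldh1l1 was too low to be tested, at 0 to 0.468 CPM.

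Among genes of glycine and serine use, 2 of 11 tested rose (18.2%, beside 20.0% called over all genes) and none fell (median log2 fold change 0.07). They were Ahcy, the hydrolase of S-adenosylhomocysteine, which went from 521 and 527 CPM to 829 and 743 CPM (0.58 ± 0.06, adjusted p = 8.16e-06, edgeR), and Gcat, a mitochondrial enzyme of threonine breakdown to glycine (0.49 ± 0.10, adjusted p = 0.00242, edgeR). Of 6 genes of de novo purine synthesis only Paics passed the test (0.21 ± 0.07, adjusted p = 0.0315, edgeR), and this call was lost when 3 of the 4 libraries were each left out and under 2 other settings. Of 8 neighbours in proline, ornithine and glutamate metabolism none rose and 1 fell, Glul, the glutamine synthetase (-0.34 ± 0.08, adjusted p = 0.00618, edgeR), a call lost without FeSO4 replicate 1 (-0.22, adjusted p = 0.139) and when every gene with a read was tested (adjusted p = 0.117). Of 4 carriers of serine and other neutral amino acids, Slc1a4 rose from 4.17 and 2.58 CPM to 6.42 and 7.24 CPM (1.02 ± 0.24, adjusted p = 0.00553, edgeR), and the other 3 were not called. Without Mock replicate 2 the Slc1a4 value was 0.72 (adjusted p = 0.0751). With every gene that had a read tested, the calls of Slc1a4 (adjusted p = 0.0809) and Gcat (adjusted p = 0.0585) were lost. The purine, proline and carrier lists had 16.7%, 12.5% and 25% of their tested genes called, beside 20.0% of all genes tested. The exons of Paics and of Glul each overlap those of a gene on the other strand.

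**Figure D5:**
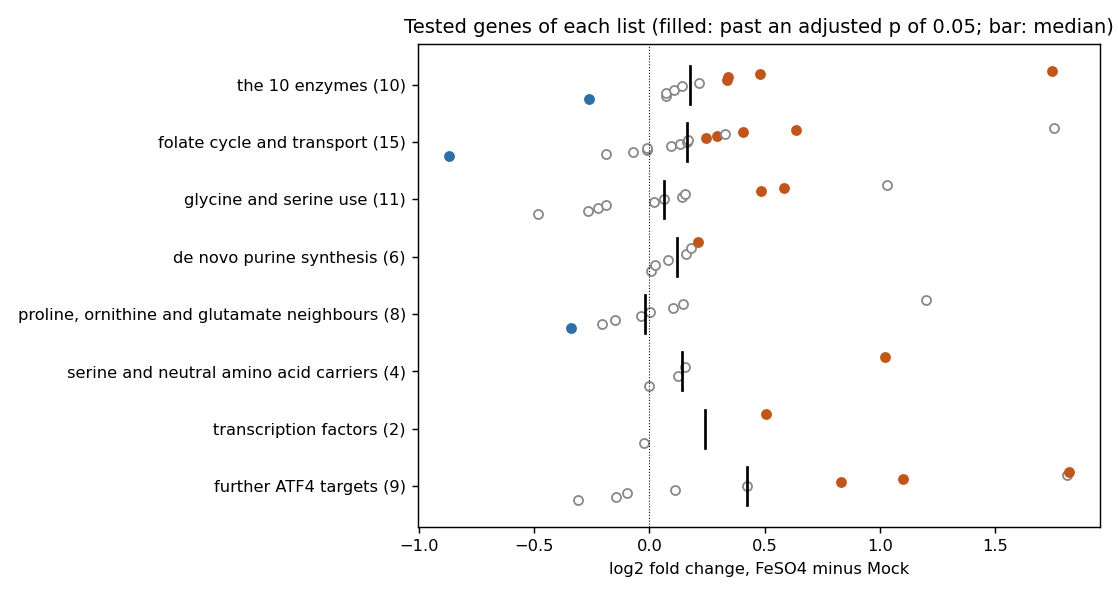
Log2 fold change, FeSO4 minus Mock (x axis), of the tested genes in the group of 10 enzymes and in 7 neighbouring lists, with the number tested in brackets, filled points for genes past an adjusted p of 0.05 (orange higher, blue lower) and bars for medians. The medians run from -0.02 for the proline neighbours to 0.42 for the further ATF4 targets.

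Of the transcription factors known to act on these enzymes, Atf4, which switches on amino acid synthesis genes under stress, rose from 128 and 121 CPM in Mock to 181 and 173 CPM in FeSO4 (0.51 ± 0.07, adjusted p = 5.49e-05, edgeR). Myc, a driver of growth metabolism, stood at 133 and 143 CPM in the Mock libraries against 139 and 132 CPM with FeSO4, and the groups overlapped (-0.02 ± 0.07, adjusted p = 0.846, edgeR). Among 10 further genes known as ATF4 targets, 9 were tested, 3 were called higher and none lower, beside 10.9% and 9.17% of all genes tested, with a median log2 fold change of 0.42. Of the 3, Asns and Trib3 were called under all 12 alternatives and Stc2 was not. Asns, the asparagine synthetase, rose from 4.07 and 6.03 CPM to 15.6 and 20.1 CPM (1.82 ± 0.19, adjusted p = 3.86e-06, edgeR). Trib3, a pseudokinase induced by amino acid shortage, rose from 26.5 and 25.04 CPM to 49.5 and 60.9 CPM (1.10 ± 0.10, adjusted p = 1.58e-06, edgeR). Stc2, a secreted glycoprotein, was called at 0.83 ± 0.26 (adjusted p = 0.0299, edgeR), but its FeSO4 libraries were far apart, at 12.9 and 30.3 CPM against 10.5 and 14.0 CPM in Mock, and without FeSO4 replicate 2 the value was 0.08. Its call was also lost in DESeq2 (adjusted p = 0.423) and limma-voom (adjusted p = 0.0809), without Mock replicate 1 (0.63, adjusted p = 0.121) and when every gene with a read was tested (adjusted p = 0.323). Ddit3, the stress factor CHOP, was at 14.4 CPM in both Mock libraries and at 10.5 and 12.6 CPM in FeSO4 (-0.31 ± 0.14, adjusted p = 0.131, edgeR).

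The letters TGATGNAA were found in the windows of 7 of the 56 enzyme and neighbouring genes that had one, beside 4.51% of all genes. Of these 7, Pycr1, Slc1a4, Asns and Trib3 rose, Chac1 and Nupr1 were not called, and Vldlr was not tested. Of the 49 genes without the letters, 46 were tested, 10 rose and 3 fell, with Psat1, Mthfd2, Mthfd1l and Atf4 among those that rose. The letters CACGTG were likewise found in 7 of the 56 genes, beside 8.09% of all genes. Of these 7, Gcat, Paics and Tyms rose, Aldh18a1 fell, 2 were not called and 1 was not tested. Of the 46 tested genes without CACGTG, 11 rose and 2 fell. With either motif 4 of 6 tested genes were called, beside 20.0% of all genes tested, and since the lists were chosen with earlier results known these counts are a description and show no link between letters and change. The matches of the 4 genes that rose are shown with 10 bases on each side, read 5′ to 3′ on the strand of the match, with the 8 matching letters in capitals. They lie at chr11:120643834-120643861 on the minus strand for Pycr1, chr11:20332700-20332727 on the plus strand for Slc1a4, chr6:7693215-7693242 on the minus strand for Asns and chr2:152344029-152344056 on the plus strand for Trib3 (GRCm38.p6, RefSeq).
Pycr1: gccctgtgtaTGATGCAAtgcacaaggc
Slc1a4: aggctggagaTGATGCAAcgcaggaggc
Asns: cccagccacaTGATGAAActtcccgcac
Trib3: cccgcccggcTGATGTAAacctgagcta
The match in Pycr1 had the same 8 letters as that in Slc1a4, as did those in Chac1 and Nupr1, which were not called, and in Vldlr, which was not tested, while those in Asns and Trib3 differed from it at the position written N. A match describes letters only and does not show that a factor binds there.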

How the data were processed

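RNA-seq data of 2 Mock and 2 FeSO4 libraries were used, grouped by the labels. The deposited values are raw read counts per Ensembl gene, which the authors had not normalized. The submitters' processing notes name Trim Galore 0.6.7, STAR 2.7.9a, featureCounts and mm10, whereas the study's methods name mm9. The annotation and strand setting are not given in the sources used here. Of 47729 gene IDs, 32799 had a symbol. The table has 5 rows of reads outside genes (no feature 4.36 to 6.03% of a library, ambiguous 3.78 to 3.91%, low quality 0.802 to 0.988%, not aligned 1.80 to 2.31%, more than 1 alignment 4.27 to 4.62%), which were left out. Library depth was 35183187 to 40859178 reads in gene rows. Replicates of either group differed by more than sampling noise (chi-square per degree of freedom 11.4 in Mock and 9.02 in FeSO4).

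Counts were filtered with filterByExpr, scaled by TMM and tested with edgeR 4.0.16 (R 4.3.3, quasi-likelihood F test, FeSO4 against Mock, no covariate), and p-values were adjusted after Benjamini-Hochberg over the 13732 genes that passed. The method was tested on simulated data, and the outcome is not given here. CPM values use TMM-scaled library sizes. Log2 ratios of paired enzymes used a prior count of 0.5 and two-sided exact permutation tests. Wilson intervals and limits for a count of 0 cover counting error only. Alternatives were DESeq2 1.42.0, limma-voom (limma 3.58.1), other scalings, filters and thresholds, a replicate block, and each library left out in turn. Gene positions are those of RefSeq (GRCm38.p6). Exon lengths and overlaps came from GENCODE M1 (NCBIM37), which may differ from the annotation of the counts. Near copies came from BLAST 2.17.0 (at least 90% identity over 200 bases). The enzymes and the neighbouring lists were chosen with earlier results of these data known. Named were all 10 enzymes, listed neighbours past an adjusted p of 0.05, and Mthfd2l, Aldh1l1, Aldh1l2, Tyms, Pycrl, Atf4 and Myc whatever their p. Some preset genes are not reported here. Smcr8, Ndufa4l2, Ddit3, Chac1, Nupr1 and Vldlr were named, and the T cell markers tested, after their values were seen.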

Additional observations from a re-analysis of the deposited data

How the results depend on the processing

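The directions and calls of Psat1, Mthfd1l and Mthfd2 held under all 12 alternatives, and the count of enzymes that rose was 4 under the settings reported, 3 when every gene with a read was tested, and 4 or 5 otherwise. The count that fell, 1 (Aldh18a1), was 0 when all genes with at least 1 count were tested, 0 at an adjusted p under 0.01, and 0 to 1 with a library left out. At the study's threshold 1 to 2 enzymes were higher with a library left out. Their median log2 fold change was 0.063 to 0.31 with a library left out, the lowest without FeSO4 replicate 1 and the highest without FeSO4 replicate 2. Of the neighbouring genes, 6 rose and 0 fell when every gene with a read was tested and 22164 genes shared the adjustment, and 1 to 2 fell with a library left out. Values that changed sign with a library left out, none of them called, were Shmt2 (-0.00073 to 0.15), Mthfd1 (-0.027 to 0.24), Mthfd2l (-0.056 to 0.23), Pycrl (-0.16 to 0.087) and Myc (-0.083 to 0.033). Beyond the construction of these settings the cause was not tested. Scaling by library size alone turned the split over all genes from 1491 higher and 1259 lower to 980 higher and 1810 lower, and it lowered the median of the 10 enzymes from 0.18 to 0.11 and that of all genes to -0.07, with no enzyme call changed. The replicate numbers were not tied to experiments in the labels, and deviations of same-numbered libraries from their group means correlated at 0.03 over all genes tested and at 0.22 over the 8522 genes of at least 10 CPM. With the replicate block, 4 enzymes rose and 1 fell, 13 neighbouring genes rose and 2 fell, and over all genes 1847 rose and 1580 fell. With 2 libraries per group, an interval that includes 0 leaves room for changes up to its bounds. Where a library was left out, the lone sample was assumed to vary like the others, and Pycr1, with 26 to 101 reads, was the enzyme most limited by depth.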
